A study of Mus musculus with 12 samples.

Results

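The genes described here are 10 mouse transcription factor genes: E2f1 to E2f7, and the class 1 helix-loop-helix genes Tcf3, Tcf4 and Tcf12. They were chosen by name, as families with repressors studied together with MACF1 in osteoblasts, and are 10 of the 21883 protein-coding genes placed on an autosome, X or Y. For each gene, all peaks were taken that touched its RefSeq span on GRCm38 or the 5 kb on either side. The peaks came from chromatin immunoprecipitation with an antibody against MACF1, a large protein that crosslinks actin and microtubules and takes part in Wnt signalling. The cells were MC3T3-E1, a mouse osteoblast line. In the first group the genotype was MACF1 knockdown and in the second it was control, with 3 immunoprecipitates in each and 1 input for each of these, 12 samples in all. The libraries of each group carried the labels 1, 2 and size3. The sources used here do not give the knockdown method or what size3 stands for, and do not say that libraries came from separate cultures. A peak list does not measure expression, so neither the cell type nor the knockdown could be checked from it. Macf1 itself had a peak of 138 reads in knockdown 1 and of 29 reads in knockdown size3, and none in the other 4 lists.

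E2F factors govern the genes of DNA replication and cell division. E2f1, E2f2 and E2f3 encode activators that the retinoblastoma protein holds back. E2f4 and E2f5 encode repressors that work with the related pocket proteins, E2f6 encodes a repressor that needs no pocket protein and joins Polycomb complexes, and E2f7 encodes an atypical repressor that binds DNA without a DP partner. Tcf3, Tcf4 and Tcf12 encode E proteins, which bind E-box sequences as dimers with tissue-restricted factors such as Twist1 and are blocked by Id proteins. They share the letters Tcf with the HMG-box partners of beta-catenin (Tcf7, Lef1, Tcf7l1 and Tcf7l2) but belong to another family.

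Among the 7 members with an entry in the RefSeq promoter table, peaks covered a promoter only in knockdown 1, and only at E2f3 and Tcf3. E2f4, E2f5 and Tcf4 have no entry, so whether a peak covered their promoters was not read, although E2f4 and E2f5 had peaks over a gene end. The E2f3 and Tcf3 promoters are shown because, among the listed promoters, they were the ones with a peak over them. Each line gives the 250 bases before a start of transcription (RefSeq, GRCm38.p6, minus strand, 5′ to 3′). Capitals mark a match to an E2F site (TTTCCCGC, TTTCGCGC, TTTGCCGC or TTTGGCGC, on either strand) or to an E box (CANNTG).
E2f3, outer start, chr13:29986064-29986313: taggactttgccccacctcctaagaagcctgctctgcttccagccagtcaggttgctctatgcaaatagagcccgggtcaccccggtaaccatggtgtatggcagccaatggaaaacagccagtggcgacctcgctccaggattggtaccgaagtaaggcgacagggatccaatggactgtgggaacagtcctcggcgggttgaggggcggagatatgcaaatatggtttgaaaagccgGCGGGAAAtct
E2f3, inner start, chr13:29984392-29984641: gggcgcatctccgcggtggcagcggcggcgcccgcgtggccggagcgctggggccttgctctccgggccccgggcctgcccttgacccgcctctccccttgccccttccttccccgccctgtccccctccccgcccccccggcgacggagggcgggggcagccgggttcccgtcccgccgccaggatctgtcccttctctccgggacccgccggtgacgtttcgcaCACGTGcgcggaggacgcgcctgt
Tcf3, chr10:80433636-80433885: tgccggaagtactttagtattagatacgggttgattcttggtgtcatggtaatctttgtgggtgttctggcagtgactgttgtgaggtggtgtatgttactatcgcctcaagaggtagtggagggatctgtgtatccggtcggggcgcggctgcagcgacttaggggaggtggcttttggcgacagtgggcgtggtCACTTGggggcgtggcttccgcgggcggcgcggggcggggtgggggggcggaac

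The outer E2f3 promoter held 1 E2F match, GCGGGAAA, whose first base lay 11 bases before the start. The inner E2f3 promoter held 1 E box, CACGTG, and the Tcf3 promoter held 1, CACTTG. Over all 21262 promoters of the table, 2.35% held an E2F match and 62.8% held an E box. Among the 11 member promoters, 2 held an E2F match, at E2f3 and E2f7, and 7 held an E box. The inner E2f3 promoter was rich in G and C (78% of bases, with 33 CpG), the outer E2f3 and the Tcf3 promoters less so (55.6% and 59.6%). A high GC content was also found without a peak: E2f1, E2f7 and the outermost Tcf12 promoter had 77.6%, 79.2% and 76.8% and no peak over them in any library. In the whole table the median GC content was 63.2% in 3403 promoters under a knockdown 1 peak and 54% in the 17859 others. These matches are descriptions of letters and were not tested.

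The member genes had 22 peaks in all, and 21 of these were in knockdown lists. At least 1 knockdown library had a peak at 8 of the 10 genes, against 57.7% of all protein-coding genes, and at least 1 control library at 1 gene, against 6.70%. A peak was called at 6, 2 and 5 of the 10 genes in knockdown 1, 2 and size3, against 0, 0 and 1 in control 1, 2 and size3. With all deposited peaks the groups did not overlap: the mean was 4.33 ± 2.08 genes in knockdown and 0.333 ± 0.577 in control libraries (SD, n = 3 each). Over all protein-coding genes, the share with a peak was 43.7%, 7.95% and 35.4% in knockdown 1, 2 and size3, and 1.38%, 0.315% and 5.49% in control 1, 2 and size3. The member counts thus lay near what these lists held over all genes. Peaks per Mb of gene and flank gave the same picture. Members had 12.7, 2.12 and 7.42 peaks per Mb in knockdown 1, 2 and size3 and 0, 0 and 1.06 in control 1, 2 and size3, where all protein-coding genes had 13.7, 1.76 and 10.9, and 0.292, 0.0583 and 1.13. Across all protein-coding genes the share with a peak was 26.6 percentage points higher in knockdown than in control libraries (29% ± 18.7 against 2.4% ± 2.73, SD, n = 3 each, exact two-sided permutation p = 0.1, the smallest that 20 assignments allow). No p was computed over the members, and no single gene could have one under 0.1. Both member peaks of knockdown 2 had a false discovery rate of 100%. With only peaks of at most 5%, 6, 0 and 2 members had a peak in knockdown 1, 2 and size3. In each control library the number was 0, so the groups overlapped. With peaks of a deposited score of at least 100, 3, 0 and 0 members had a peak in knockdown 1, 2 and size3 and 0 in each control library, so the groups overlapped. Over all genes these shares were 9.98%, 0.393% and 3.55% in knockdown 1, 2 and size3. In control 1, 2 and size3 they were 0.0594%, 0.0228% and 0.0685%. With at most the 2000 best peaks of each list by score, where the 772 and 198 peaks of control 1 and 2 entered whole, the numbers were 3, 1 and 1 in knockdown 1, 2 and size3 and 0, 0 and 1 in control 1, 2 and size3, and the groups again overlapped. The shares of all genes were then 8.85%, 3.71% and 7.24% in knockdown 1, 2 and size3. For control 1, 2 and size3 they were 1.38%, 0.315% and 5.10%. With the score limit and with the best peaks, the mean difference in members with a peak was 1 and 1.33, against 4 with all peaks. Over all genes, the mean difference in the share with a peak was 4.59 and 4.34 percentage points, against 26.6 with all peaks. With at most the 2000 best peaks the groups overlapped over all genes too: the share was 3.71% in knockdown 2 and 5.10% in control size3 (exact two-sided permutation p = 0.2, n = 3 each).

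**Figure D1:**
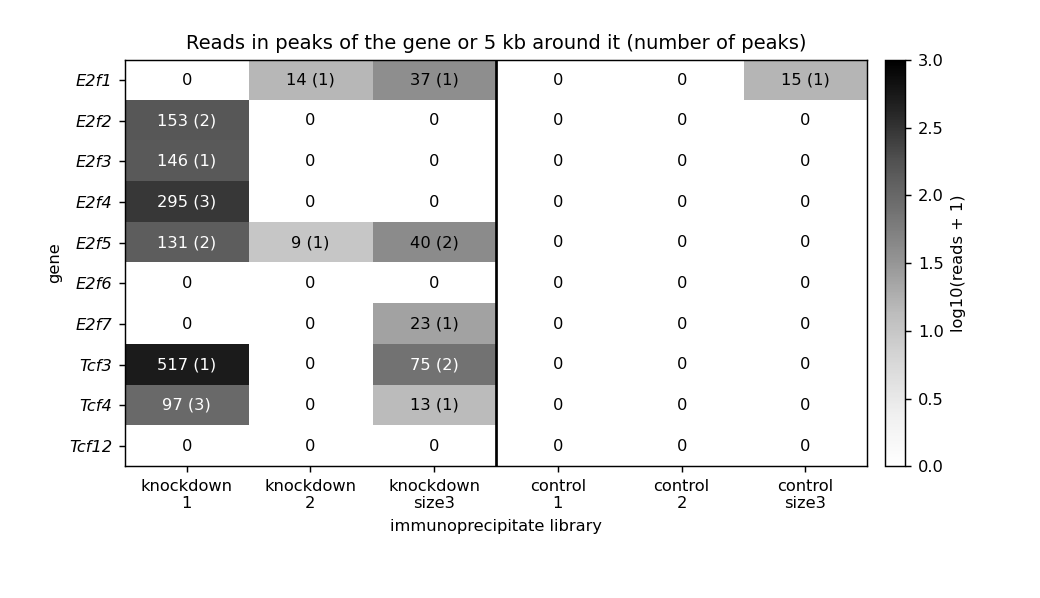
Reads in the peaks of each gene or the 5 kb around it (rows) in each immunoprecipitate (columns, 3 knockdown left of 3 control), with the number of peaks in brackets and darker grey for more reads on a log10 scale. Tcf3 in knockdown 1 holds the most reads, 517, and the only filled control cell is E2f1 in control size3, with 15.

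The lists differ in depth and in what they count as a peak. With duplicates removed, 18454330, 5575205 and 8175173 reads remained in knockdown 1, 2 and size3, and 26196138, 33085606 and 10698067 in control 1, 2 and size3. The redundant rate, the share of reads removed as duplicates, was 0.51, 0.65 and 0.02 in knockdown and 0.25, 0.16 and 0.01 in control libraries. A false discovery rate of 100% was given to 0.0234%, 98.4% and 0.0114% of the peaks in knockdown 1, 2 and size3. In control 1, 2 and size3 the share was 99.7%, 100% and 0.592%. Only 51 of the 4513 peaks of knockdown 2 had a rate of at most 5%. The smallest peak of a list held 16, 8 and 11 reads in knockdown 1, 2 and size3, and 19, 29 and 12 in control 1, 2 and size3. A gene without a peak can therefore still have reads, which these lists do not show. Whether depth or duplicates played a part in the results below was not tested.

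Among the activators, E2f2 and E2f3 had peaks only in knockdown 1, and E2f1 had none inside the gene in any library. The span of E2f2 (chromosome 4, 136172274 to 136196057) held 2 knockdown 1 peaks. The first, at 136175660 to 136177779, had 99 reads and a fold enrichment of 5 over input, with its summit 5.01 kb inside the 5′ end. The second, at 136195411 to 136196671, had 54 reads and a fold of 3.99 and lay across the 3′ end. A knockdown size3 peak of 15 reads stood 8.27 kb from E2f2, outside the 5 kb that were counted.

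At E2f3 (chromosome 13, 29906575 to 29986064) knockdown 1 had a single peak, at 29983586 to 29986614, with 146 reads in 3029 bp and a fold of 4.34. It covered both promoters shown above, and its summit lay 188 bp inside the inner start and 1860 bp inside the outer one. Its score of 150.98 was higher than or equal to that of 97.9% of knockdown 1 peaks, the highest such rank among the member peaks. No other library had a peak within 500 kb of E2f3: the nearest stood 3930 kb away in knockdown 2, 559 kb in knockdown size3, and 16996, 47452 and 639 kb in control 1, 2 and size3.

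E2f1 (chromosome 2, 154559400 to 154569892) was the only member with a control peak. In control size3 it lay at 154557878 to 154558461, 0.939 kb past the 3′ end and inside the span of the neighbour Necab3, with 15 reads, a fold of 7.1 and a false discovery rate of 84.8%. Knockdown size3 also had a peak past that end, at 154554686 to 154555871, with 37 reads and a fold of 4.5, likewise in Necab3, and 2.01 kb of sequence separated it from the control peak. Knockdown 2 had a peak of 14 reads on the other side, 4.31 kb before the 5′ end, with a false discovery rate of 100%. This was the farthest peak still counted, while a knockdown 1 peak of 41 reads at 7.44 kb was the nearest one not counted for E2f1. None of the 3 counted peaks overlapped another, and none reached the gene itself.

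E2f5, a repressor gene, was the only member with a peak in all 3 knockdown libraries and the only one with the same place called in more than 1. Its peaks held 131, 9 and 40 reads in knockdown 1, 2 and size3, and there were none in the 3 control libraries. The knockdown 2 peak had a false discovery rate of 100%. With only peaks of at most 5%, E2f5 had none in knockdown 2. A peak lay over the lower-coordinate end of the gene (chromosome 3, 14578602 to 14606309) in both knockdown 1, at 14578308 to 14579369 with 110 reads and a fold of 3.95, and knockdown size3, at 14578339 to 14579291 with 28 reads and a fold of 6.3. The second lay wholly within the first, with an overlap of 953 bp and summits 169 bp apart. Scaled to library size, these peaks held 5.96 RPM in knockdown 1 and 3.43 RPM in knockdown size3. The false discovery rate was 1.67% in knockdown 1 and 5.69% in knockdown size3. The E2f5 promoter has no entry in the table used here, so which end is the 5′ one was not read from the data.

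Deeper in E2f5, knockdown size3 and knockdown 2 each had a narrow peak, 59 bp apart without overlap. They lay at 14585089 to 14585411 in knockdown size3, with 12 reads and a fold of 12.21, and at 14585471 to 14585832 in knockdown 2, with 9 reads and a fold of 12.28. The 9 reads were the fewest in any member peak, and fewer than the smallest peak of the 5 other lists. A further knockdown 1 peak of 21 reads lay at 14599157 to 14599604, with a fold of 8.73. The nearest control peaks stood 723, 723 and 669 kb from the gene in control 1, 2 and size3. Of all protein-coding genes, 2.35% had a peak in every knockdown library and in no control library, and in 8.31% peaks of at least 2 knockdown libraries overlapped.

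E2f4, the other repressor of this kind, had 3 peaks and all were in knockdown 1. E2f4 is a short gene (chromosome 8, 105297663 to 105305370, 7.71 kb). A peak of 94 reads with a fold of 3.7 lay over its lower end, at 105297259 to 105298876. A second, of 63 reads with a fold of 3.59, lay over its upper end at 105305283 to 105306286 and reached into the adjacent gene Elmo3. The third, of 138 reads, overlapped Elmo3 and Mir328 and not E2f4. Knockdown size3 had its nearest peak 9.79 kb away, and knockdown 2 and control 1 and size3 theirs at 617, 47462 and 1590 kb. Control 2 had no peak on that chromosome.

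**Figure D2:**
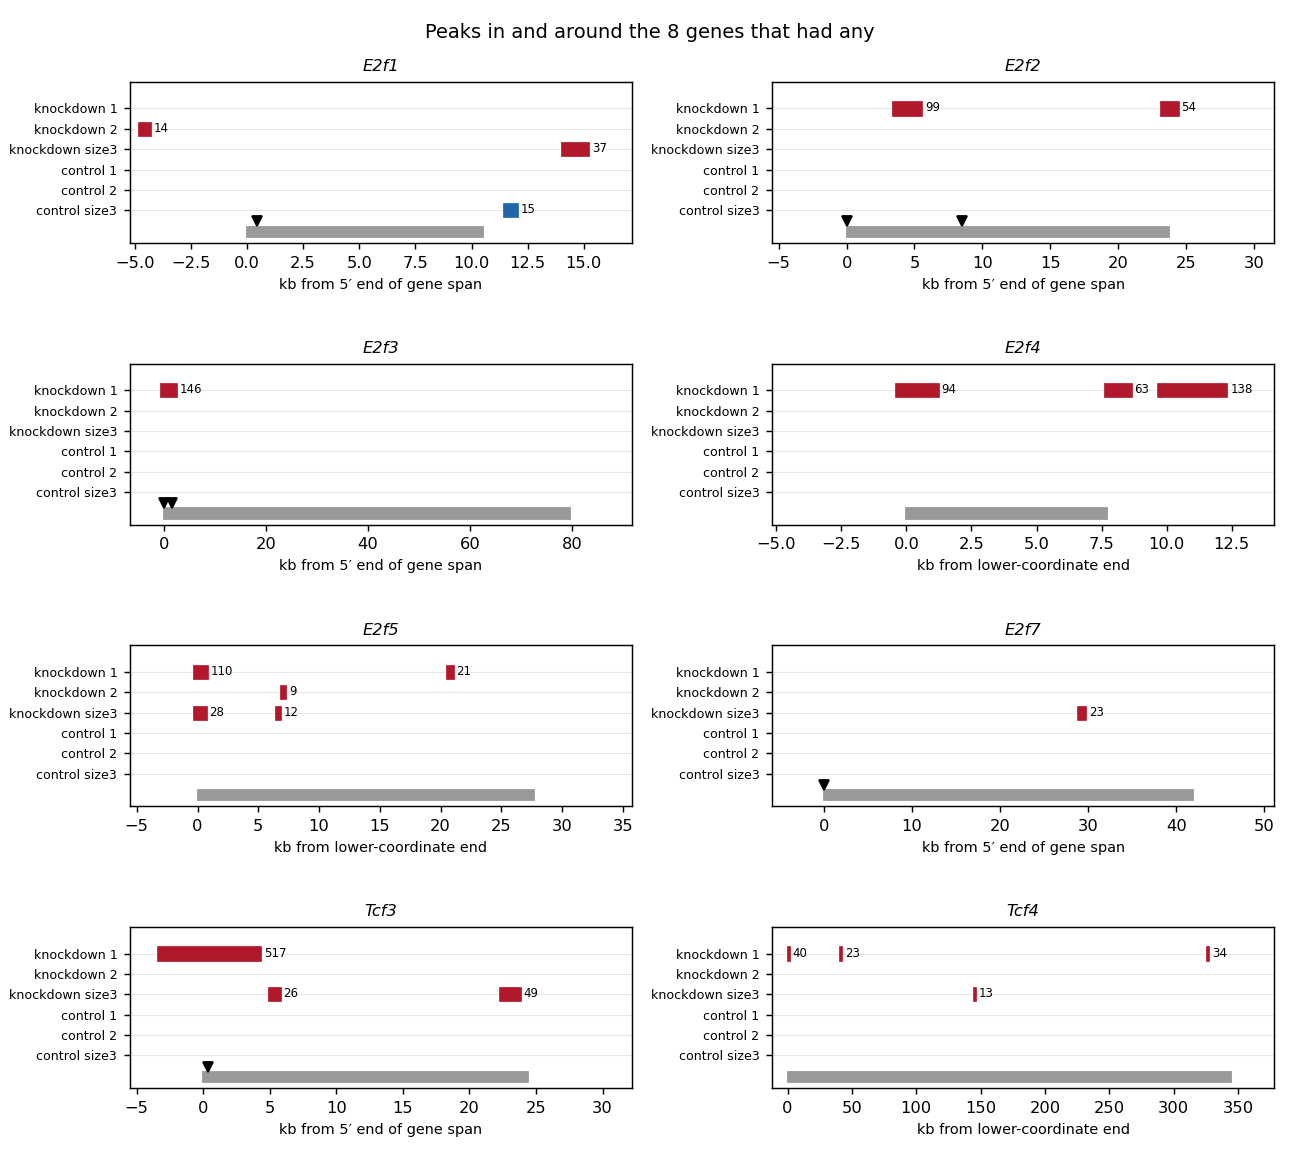
Peaks (bars) of the 6 libraries at the 8 genes that had any, knockdown (red) above control (blue), along the gene span (grey bar) in kb from its 5′ end or, where no strand was given, its lower-coordinate end. Numbers are reads in the peak and black triangles are starts in the promoter table. E2f5 is the only gene where peaks of 2 libraries, knockdown 1 with 110 reads and knockdown size3 with 28, cover the same place.

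E2f6, the repressor of the Polycomb complexes, had no peak in the gene (chromosome 12, 16810909 to 16826752) or within 5 kb in any library. Its nearest peaks stood 35, 64.7 and 68.2 kb away in knockdown 1, 2 and size3 and 13701, 1020 and 766 kb in control 1, 2 and size3. The knockdown 1 peak was on one side of the gene and those of knockdown 2 and size3 on the other. A gene without any peak was common, since 41.3% of protein-coding genes had none in the 6 lists.

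E2f7 (chromosome 10, 110745439 to 110787384) had a single peak, in knockdown size3, at 110774338 to 110775109, with 23 reads, a fold of 5.33 and a false discovery rate of 6.14%. Its summit lay 29.1 kb from the start, at 69.3% of the length of the gene. Control size3 had its nearest peak 11.8 kb before the gene, closer than knockdown 1 at 27.9 kb and knockdown 2 at 72.1 kb. The next control peaks stood 352 and 429 kb away in control 1 and 2.

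Tcf3 had the member peak with the most reads. In knockdown 1 a peak of 7719 bp, at chromosome 10, 80429677 to 80437395, held 517 reads, or 28 RPM, with a fold of 3.61. It spread over the 5′ end of the gene (80409541 to 80433976) and the promoter shown above, and its summit lay 192 bp inside the start. Only 54 of the 21398 peaks of knockdown 1, this one included, were at least as wide. Knockdown size3 had 2 peaks in Tcf3 at other places: one of 26 reads at 80428234 to 80429048, which stopped 0.628 kb short of the wide peak, and one of 49 reads at 80410210 to 80411699, near the 3′ end. No peak of knockdown 2 or of the 3 control libraries touched Tcf3. The closest control peak stood 56 kb away, in control size3.

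Tcf4, the longest member (chromosome 18, 69343429 to 69687967, 345 kb), had 3 peaks in knockdown 1 and 1 in knockdown size3. In knockdown 1 they held 40, 23 and 34 reads and had their summits 0.854, 41.2 and 327 kb from the lower end of the gene. In knockdown size3 the peak held 13 reads at 145 kb. The peaks of the 2 libraries were at least 103 kb apart, so the libraries shared the gene and no position in it. The first peak lay near the lower end of the gene without crossing it, with a fold of 5.57 and a false discovery rate of 2.06%.

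Tcf12, which encodes HEB and is nearly as long as Tcf4 (chromosome 9, 71844252 to 72111893, 268 kb), had no peak in any library. Tcf12 is among the longest protein-coding genes (class 4 of 4 equal classes by length, over 44.3 kb). In this class 68.2%, 21.2% and 58.3% of genes had a peak in knockdown 1, 2 and size3, and 4.15%, 0.932% and 12.5% in control 1, 2 and size3. No share was computed for genes near 268 kb alone. A peak in at least 1 knockdown library was found for 82.4% of that class. Its nearest peak in knockdown 1, of 62 reads, stood 10.8 kb below the gene in coordinates, that of knockdown size3 40.3 kb and that of knockdown 2 319 kb below it. Those of control 1, 2 and size3 stood 13696, 31988 and 850 kb away.

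**Figure D3:**
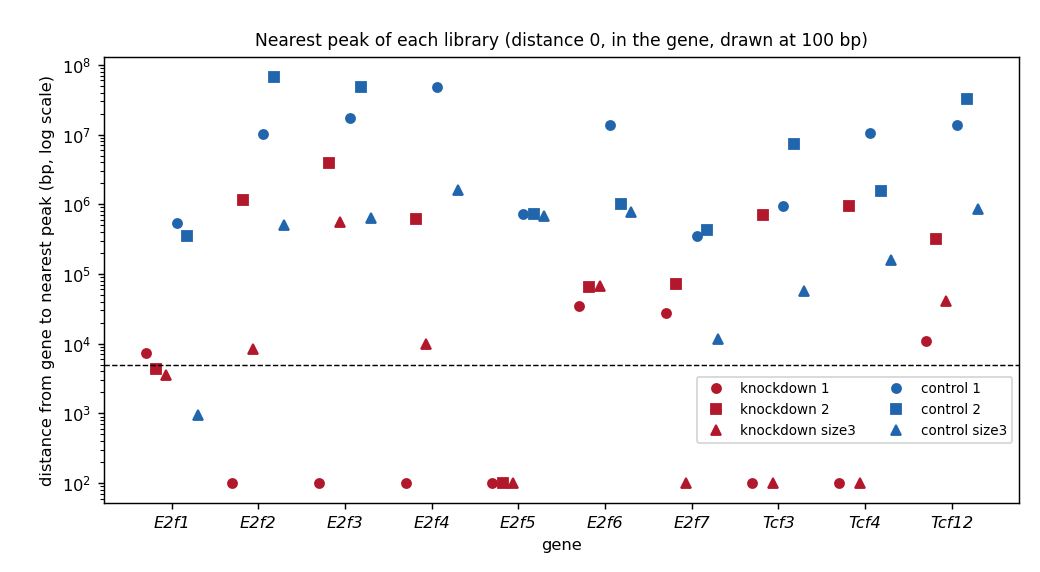
Distance in bp (log scale) from each gene to the nearest peak of each library, knockdown in red and control in blue, with a dashed line at 5 kb and a distance of 0 drawn at 100 bp. E2f6 and Tcf12 have no point under the line; control 2 has no point for E2f4 since it had no peak on that chromosome.

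The share of genes with a peak moved with gene length in all 6 lists. In knockdown 1 it was 20.1% in class 1, the shortest genes, and 68.2% in class 4, and in control size3 1.32% and 12.5%. No member fell in class 1. E2f1, E2f4 and E2f6 were in class 2, E2f2, E2f5, E2f7 and Tcf3 in class 3, and E2f3, Tcf4 and Tcf12 in class 4. A knockdown 1 peak was called at 1 of 3 members in class 2 (39.5% of all its genes), 3 of 4 in class 3 (47.0%) and 2 of 3 in class 4 (68.2%).

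**Figure D4:**
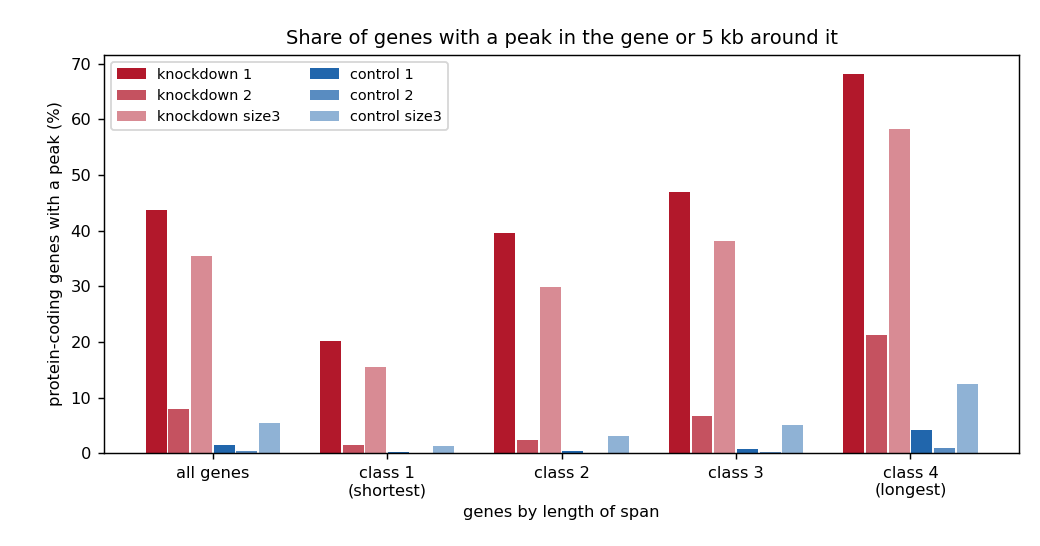
Percentage of protein-coding genes with a peak in the gene or the 5 kb around it, for all genes and for 4 equal classes by gene length, in the 3 knockdown libraries (red) left of the 3 control libraries (blue). Every library's bar is higher in class 4 than in class 1; for knockdown 1 the shares are 20.1% in class 1 and 68.2% in class 4.

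At 3 members, E2f5, Tcf3 and Tcf4, at least 2 knockdown libraries and no control library had a peak. The same held for 22.4% of all protein-coding genes. Without knockdown 1 the number was 1, and without knockdown size3 it was also 1, in each case E2f5, beside 3.19% and 3.75% of all genes. Both counts rest on the knockdown 2 peak of E2f5, whose false discovery rate was 100%. In length class 3, which holds E2f5 and Tcf3, 24.2% of genes met the rule, and in class 4, which holds Tcf4, 41.9%. Taking only peaks with a false discovery rate of at most 5%, members with a peak numbered 6, 0 and 2 in knockdown 1, 2 and size3 and 0 in each control library. For all genes those shares were 43.2%, 0.0320% and 25.1% in knockdown 1, 2 and size3, and 0 in each control library. In knockdown size3 the 2 members were E2f5, by its inner peak, and Tcf3.

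By position, 7 of the 22 member peaks lay across an end of the gene, 11 inside it and 4 in the flanks. Of the 7, 6 were knockdown 1 peaks and 1 was the knockdown size3 peak of E2f5. A peak over an end was found at 5 members in knockdown 1, where it was found for 17.1% of all genes, at 1 in knockdown size3 (7.08%), and at none in knockdown 2 (0.0411%) or in control 1, 2 and size3 (0.0320%, 0.00457% and 0.187%). The 5 were E2f2, E2f3, E2f4, E2f5 and Tcf3, and E2f4 had both its ends covered. A member peak over the promoter was seen for 2 of 7 members in knockdown 1, against 16.7% of 17491 genes in the promoter table. No other library had one at these 7, where the shares over all genes were 0.0286% in knockdown 2, 8.21% in knockdown size3, and 0, 0.00572% and 0.223% in control 1, 2 and size3. E2f4, E2f5 and Tcf4 are not among the 7. Member peaks of knockdown 1 were wider and held more reads (median 1162 bp and 78.5 reads, 12 peaks) than those of knockdown size3 (815 bp and 26 reads, 7 peaks). The medians of the whole lists were 990 bp and 46 reads in knockdown 1 and 647 bp and 17 reads in knockdown size3. Fold enrichment ran the other way, with a median of 4.17 in knockdown 1 and 5.33 in knockdown size3, as in the whole lists (4.98 and 8.1). Folds belong to the authors' peak calls within a list, so these differences were not tested.

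For the members with peaks in at least 2 libraries, the genes with the same libraries called and the closest reads in peaks (Euclidean distance over 6 libraries of log2 reads + 1) were as follows. For E2f5 they were Pcdha12 and Dnah9, and 515 genes, E2f5 included, had peaks in the same libraries. For E2f1 they were Ptprz1 and Myof, among 24 genes. For Tcf3 they were Pigq and Hdac5, and for Tcf4 Ryk and Apoc2, in both cases among 3891 genes with a peak in knockdown 1 and knockdown size3 only. The reads of Ryk equalled those of Tcf4 in every library, 97 in knockdown 1, 13 in knockdown size3 and none elsewhere.

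The partners of these factors were looked at in lists fixed by name. Of 12 genes that encode DP partners, pocket proteins and their MuvB complex or the atypical E2f8, 2 had a peak in at least 2 knockdown libraries and no control library, and 9 had one in some knockdown library, as did 57.7% of all genes. A control peak was found at 1 of the 12, Lin54. The 2 were Lin52, of the MuvB complex, and Rb1, which encodes the retinoblastoma protein and had peaks of 16 reads in knockdown 1 and 8 reads in knockdown 2. That knockdown 2 peak of Rb1 had a false discovery rate of 100%. For Lin52 the knockdown 1 peak, of 33 reads, lay outside the gene span. Of 21 cell cycle genes that E2F factors are known to regulate, 13 had a peak in some knockdown library and 3 met the rule, Cdt1, Mcm4 and Cdc6. None of the 21 had a control peak, where 6.70% of all genes had one. Mcm4 met the rule only through a knockdown 2 peak of 8 reads outside the gene span, with a false discovery rate of 100%. For Cdc6 the knockdown 1 peak, of 43 reads, also lay outside the span. Cdt1, a licensing factor of DNA replication, had peaks of 124 and 239 reads in knockdown 1 and of 24 and 38 in knockdown size3. Of 11 genes for Polycomb partners of E2F6, 9 had a peak in some knockdown library. A control peak was found at 1 of the 11, Pcgf6, and 4 met the rule. Among them Rnf2, which encodes a ubiquitin ligase of the complex, had a peak in all knockdown libraries, with 119 reads in knockdown 1, 10 and 8 reads at separate places in knockdown 2 and 17 reads in knockdown size3. Both knockdown 2 peaks of Rnf2 had a false discovery rate of 100%.

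On the E protein side, none of the 4 Id genes had a peak in any library, and 41.3% of all genes had none either. All 4 Id genes are in length class 1, where 29.8% of genes had a peak in some knockdown library. Of 16 genes for tissue-restricted partners, 14 had a peak in some knockdown library and 2 met the rule, Hand2 and Tal1. The knockdown 1 peak of Tal1, of 29 reads, lay outside the gene span. Of these 16 genes, 13 are in length class 1, where 6.96% of genes met the rule and 29.8% had a knockdown peak. All 3 genes of the ETO corepressors, which bind E proteins, had a knockdown peak, and 2 met the rule, Cbfa2t3 and Runx1t1. Runx1t1 met it only through a knockdown 2 peak of 8 reads with a false discovery rate of 100%. The other gene, Cbfa2t2, also had a peak of 16 reads in control size3. The 4 HMG-box genes each had peaks in knockdown 1 and knockdown size3, none in knockdown 2, and 2 of them also in control size3. Of these 4 genes, 2 met the rule, Tcf7 and Tcf7l2. Tcf7 had knockdown 1 peaks of 82, 298, 161 and 174 reads and a knockdown size3 peak of 36 reads. Tcf7l2 had knockdown 1 peaks of 31 to 219 reads and knockdown size3 peaks of 17 to 39 reads. Cbfa2t3, Runx1t1, Cbfa2t2, Tcf7l1, Lef1 and Tcf7l2 each span over 44.3 kb and so are in length class 4. In that class 82.4% of genes had a peak in some knockdown library and 41.9% met the rule. A control size3 peak was found for 12.5% of its genes. The counts of all these lists stand beside the 22.4% of all genes that met the rule, the 57.7% with a peak in some knockdown library and the 6.70% with a control peak. They were not tested.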

How the data were processed

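The submitters' processing notes name cutadapt, Bowtie2 and the build GRCm38. Per the file headers, the authors called peaks with MACS 1.4.2 on each immunoprecipitate against its own input, with uniquely mapped reads, no pooling, a p cutoff of 1.00e-05 and duplicates reduced to 1 read. Whole reads per peak are the deposited counts, from which RPM (reads scaled to the library's reads after duplicate removal) were computed here. The deposited score is 10 times the negative log10 of the peak's p-value, the deposited fold enrichment is a ratio to the local input background, and the deposited false discovery rate is a percent from swapping immunoprecipitate and input. Deposited widths and summits are in bp. Scores, folds and rates are the authors' and only describe or filter peaks within a list.

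Gene spans came from the RefSeq table of GRCm38.p6 (21883 protein-coding genes), and strand and promoters from its promoter table, which lists 7 of the 10 genes. Exons and introns were not analysed here. A peak belonged to a gene if it overlapped the span or 5 kb around it by at least 1 bp, so a peak between neighbours counts for both. Group differences over all genes were tested by exact permutation. Intervals for counting error were not computed for peak numbers. The overlap step recovered 200 of 200 simulated peaks. Genes named are the members, Macf1, up to 4 genes of each list by libraries with a peak and reads, the 2 genes most like a member, and neighbours under a peak. Members and lists were chosen with earlier results of these data known. Labels do not pair libraries by a shared source. Python 3.11.15 with pandas 2.3.3, numpy 2.4.6 and matplotlib 3.10.9 was used.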

Additional observations from a re-analysis of the deposited data

How the results depend on the processing

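The difference between knockdown and control libraries kept its direction under every alternative tried, for members with a peak (4), member peaks per library (6.67) and the share of all genes with a peak (26.6 points). With a score of at least 100 the first 2 were both 1, and with at most the 2000 best peaks of each list, where control 1 and 2 entered whole, both were 1.33. These settings gave 4.59 and 4.34 points over all genes, the second with an exact permutation p of 0.2. Divided by each library's reads, the first 2 were 0.401 members and 0.591 peaks per 1000000 reads, which assumes that peaks grow in proportion to reads and gives no number at equal depth. Leaving out 1 library at a time gave 3.17 to 5.17 members, 4.17 to 9.17 member peaks and 19.3 to 37.2 points, the lowest each time without knockdown 1. Members called in at least 2 knockdown and no control libraries numbered 3 (22.4% of all genes), and 0 with a score of at least 100 (0.868% of all genes), 5 with a 10 kb flank (27.4%), 7 when 1 knockdown library was enough (52.0%) and 1 when all 3 were needed (2.35%). They numbered 2 with a false discovery rate of at most 5% (16.9%) and 2 with at most the 2000 best peaks (1.57%). In the latter, E2f5 was called in part through its knockdown 2 peak, whose false discovery rate was 100%. With 1 library left out, members called by this rule numbered 1 to 4, the lowest without knockdown 1 (3.19% of all genes) or knockdown size3 (3.75%). Fewer peaks or libraries enter the stricter settings; otherwise the cause was not tested. With the replicate label as a block, the differences were 4, 6.67 and 26.6, and the exact p for all genes was 0.25, the smallest that 3 pairs allow. Same-labelled libraries had correlations of deviations of -0.06, 0.12 and 0.07 over genes for labels 1, 2 and size3. Knockdown 1 correlated best with control size3 (0.08), and knockdown 2 equally with control 1 and control 2 (0.12). Knockdown size3 correlated best with control size3 (0.07, against -0.05 with control 1 and control 2). The same label was not the best match for every library, so the labels were not taken as pairs. The size3 libraries shared low redundant rates (0.02 in knockdown, 0.01 in control), and whether the label marks a batch was not tested. The lists differed in depth, from 5575205 to 33085606 reads, and whether depth played a part was not tested.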
